A study of Homo sapiens with 32 samples.

Results

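GATA4 and GATA6 are zinc-finger transcription factors, and their loci were searched for binding of the nuclear receptor HNF4α by chromatin immunoprecipitation sequencing (ChIP-seq) in human pancreatic ductal adenocarcinoma lines. A peak, a stretch of DNA enriched by the antibody, was assigned to a locus when its summit lay within 50 kb of the gene's RefSeq span. Peaks of all 18 libraries that overlapped by at least 1 bp were merged into a site, and sites were numbered along the chromosome. This gave 8 sites with 43 peaks at GATA6 and 11 sites with 65 peaks at GATA4, together 19 of 78729 merged regions and 108 of 337294 peaks.

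In 2 induced lines, Panc10.05 and BxPC3, expression of HNF4α isoform P1-α2 or P2-α8 was induced with doxycycline. The dose was 500 ng/mL throughout in BxPC3. In Panc10.05 it was 25 ng/mL with P1-α2 but 12.5 ng/mL with P2-α8, and isoform and dose therefore cannot be told apart in that line. In the third line, ASPC1, CRISPR interference (guide-directed repression of a promoter) was aimed at the P1 promoter of HNF4A (sgP1) or at its P2 promoter (sgP2), beside a control guide (sgNC). An antibody against all HNF4α isoforms (pan antibody) was used in all 7 groups of cells, and ASPC1 sgNC and sgP2 were also precipitated with an antibody to P1 isoforms. There were 9 groups of 2 libraries, and the labels do not say whether these were separate cultures or whether a line was a single clone, so p-values measure only the spread between libraries. The library names put each line in a series of its own, so line and library series cannot be told apart.

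HNF4α is a nuclear receptor of liver, gut and pancreas that is transcribed from a pair of promoters, and the resulting P1 and P2 isoforms differ at their N-terminus. GATA4 and GATA6 bind GATA motifs and act with HNF and FOXA factors in forming the endoderm, the pancreas and the gut epithelium. GATA6 is widely used as a marker of the classical, more differentiated subtype of pancreatic ductal adenocarcinoma, in which HNF4A is also expressed.

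Each library is represented by a peak list from the authors, with a fold enrichment and a −log10 q for each peak and without read counts, so the depth is unknown. The lists held 260 to 41808 peaks, and the weakest peaks had a −log10 q slightly over 8 in the induced lines but slightly over 2 in ASPC1. A site missing from a list is therefore a peak that was not called there, and no test compared peak numbers between ASPC1 and the induced lines. Fold enrichment was used to rank peaks within their own list, as a percentile with 100 for the strongest. Around HNF4A itself, whose promoters the guides target, the ASPC1 pan lists held 5 and 2 peaks in sgNC, 2 and 2 in sgP1, and 0 and 2 in sgP2.

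GATA6 spans chr18:22169589-22202528 (GRCh38.p14), and the searched window of 132940 bp held 5 other genes, among them the antisense gene GATA6-AS1. GATA6 site 1, at chr18:22168836-22169561, covered the stretch between the starts of GATA6 and GATA6-AS1 in part and reached into GATA6-AS1, and its median summit lay between them, 0.322 kb before the GATA6 start. The RefSeq sequences of the 250 bases upstream of each start (GRCh38.p14, chr18:22169339-22169588 on the plus strand for GATA6 and chr18:22168969-22169218 on the minus strand for GATA6-AS1) are shown because this site overlaps both promoters. Capitals mark a match to CCAAT, the box bound by NF-Y.
GATA6: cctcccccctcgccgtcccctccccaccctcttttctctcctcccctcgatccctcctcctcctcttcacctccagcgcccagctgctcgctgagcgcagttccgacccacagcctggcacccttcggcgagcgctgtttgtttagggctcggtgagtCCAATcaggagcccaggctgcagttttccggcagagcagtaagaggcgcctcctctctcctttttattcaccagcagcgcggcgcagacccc
GATA6-AS1: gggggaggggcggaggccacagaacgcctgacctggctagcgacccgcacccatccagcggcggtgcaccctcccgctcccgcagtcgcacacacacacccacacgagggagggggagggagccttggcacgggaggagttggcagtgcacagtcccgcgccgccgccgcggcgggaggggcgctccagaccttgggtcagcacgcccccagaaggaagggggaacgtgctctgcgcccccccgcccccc
Of the 5 peaks of site 1, 4 overlapped the GATA6 window and 5 the GATA6-AS1 window, and 1 summit lay inside each. Both windows were searched on both strands for CAAAG, the core of the HNF4 half-site, for the HNF4 motif CAAAGTCCA, which contains that core, for the GATA motif AGATAA, and for the NF-Y box. The NF-Y box was found once in the GATA6 window, and none of the 4 motifs in the GATA6-AS1 window, which says only that these letters are not in that window. Over 35116 RefSeq promoter windows of the same length the shares with a match were 42.1% for the half-site core, 0.325% for the longer HNF4 motif, 9.17% for the GATA motif and 32.0% for the NF-Y box. The GC content was 64.4% for the GATA6 window and 74.4% for the GATA6-AS1 window.

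Peaks at this promoter pair were low-ranking wherever they were called. Site 1 was listed in Panc10.05 P1-α2 replicate 2 at percentile 2.41 and in ASPC1 sgNC replicate 1 at percentile 35.4. In sgP1 it stood at percentiles 30.9 and 3.88, and in sgP2 replicate 2 at 15.3. Its fold enrichment was 3.66 to 6.69 over these 5 lists, and none of the 4 BxPC3 lists and none of the 4 P1-antibody lists held it.

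The most widely found GATA6 site lay beyond the gene. GATA6 site 6 (chr18:22222841-22224250) had its median summit 20.9 kb past the end of GATA6, inside the span of LOC105372017, an uncharacterised RefSeq gene. It was called in all 14 pan lists, a pattern that 2.98% of the regions found in those lists had, and in 3 of the 4 P1-antibody lists. The list without it was the shortest of all, ASPC1 sgNC with the P1 antibody, replicate 2, with 260 peaks.

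**Figure D1:**
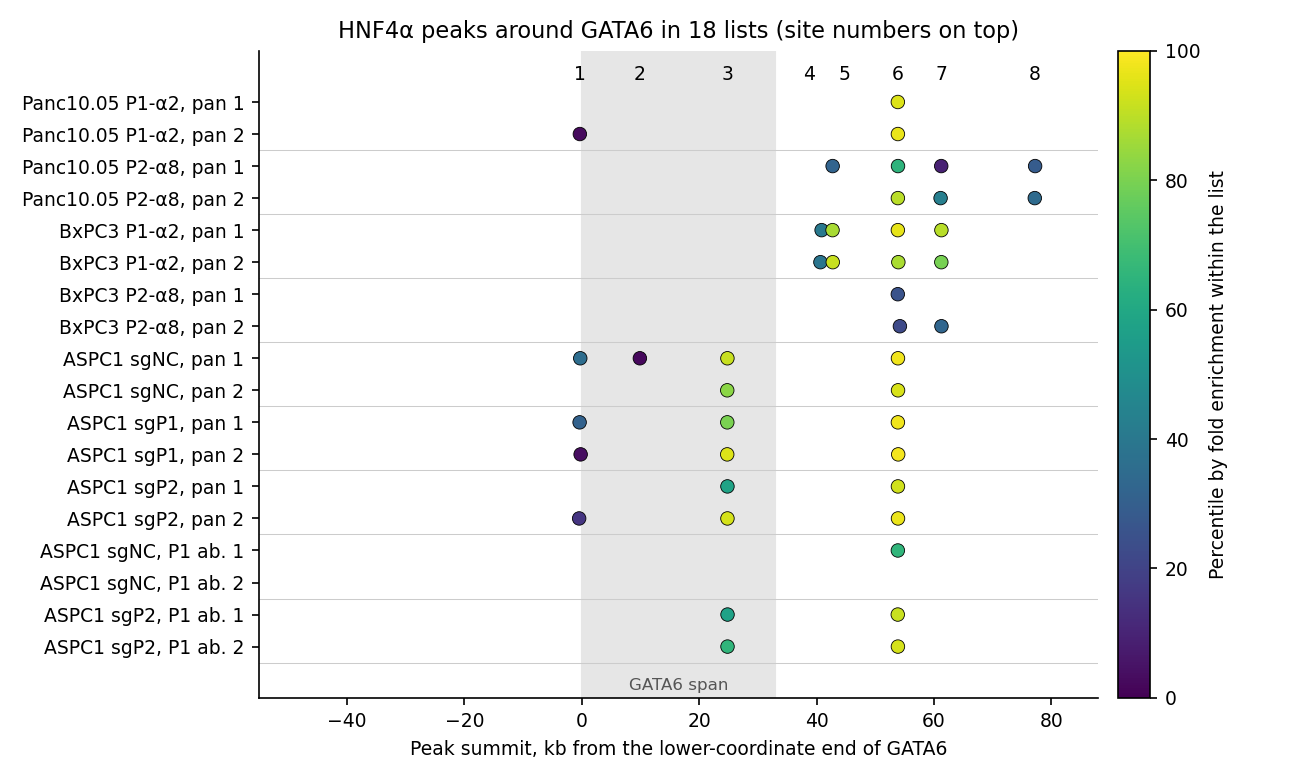
Peaks around GATA6 in each of the 18 lists; the x axis gives the summit's distance in kb from the lower-coordinate end of the gene, grey shading the gene's span, and colour the percentile of the peak by fold enrichment within its list. Site 6 appears in 17 of 18 lists, whereas site 3 inside the gene appears in 8 lists, all of ASPC1.

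In Panc10.05, site 6 stood at percentiles 94.7 and 96.7 for P1-α2, with fold enrichments of 38.1 and 53.6. For P2-α8 it stood at 64.8 and 89.8, with folds of 14.8 and 22.7. In BxPC3 the percentiles were 96.2 and 87.3 for P1-α2 and 25.8 and 22.3 for P2-α8. In Panc10.05 both P1-α2 percentiles were above both of P2-α8, and in BxPC3 likewise. Percentiles in lists of different length do not by themselves show a change in binding. The share of all regions with such non-overlap was not computed. The ASPC1 pan lists placed site 6 at percentiles 98.0 and 94.1 (sgNC), 97.9 and 98.1 (sgP1) and 92.6 and 97.1 (sgP2). With the P1 antibody they were 65.3 in sgNC replicate 1 and 91.5 and 93.4 in sgP2. Site 6 was near the top of every ASPC1 pan list, whichever promoter the guide addressed.

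GATA6 site 3 (chr18:22193889-22194655) was the one widely found site inside the gene, 24.8 kb from its start. All 6 ASPC1 pan lists and both sgP2 lists of the P1 antibody held it, and none of the 8 lists of Panc10.05 and BxPC3 did. Of the regions found in pan lists, 1.19% were likewise in all 6 ASPC1 lists and in no induced list. The percentiles were 91.7 and 82.6 in sgNC, 80.0 and 94.8 in sgP1, and 58.1 and 93.4 in sgP2. With the P1 antibody sgP2 gave 57.8 and 65.4. The summits of its 8 peaks differed by an SD of 20.7 bp. Its −log10 q was 19.5 or more in every list that held it. Depth and control are unknown, so this cannot be set against the −log10 q of 8 that the induced lists reached down to. Why the induced lists lacked the site was not tested. Line and library series cannot be told apart here.

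The remaining GATA6 sites lay beyond the gene and were called in the induced lines alone, except site 2. Site 4 (chr18:22210128-22210563) was in both BxPC3 P1-α2 lists, at percentiles 40.5 and 39.0. Site 5 (chr18:22211896-22212639) was in the same lists at 86.8 and 91.4, and in Panc10.05 P2-α8 replicate 1 at 31.9. These neighbours were thus found together for BxPC3 P1-α2, and site 5 was the higher-ranking of the pair. Site 7 (chr18:22230404-22231152) stood at 89.4 and 79.4 for BxPC3 P1-α2, at 9.03 and 42.7 for Panc10.05 P2-α8, and at 32.7 for BxPC3 P2-α8 replicate 2. Site 8 (chr18:22246637-22247188), in the span of LOC105372018, was called for Panc10.05 P2-α8 only, at 28.8 and 34.6. Site 2, inside GATA6, was a single peak of ASPC1 sgNC replicate 1 at percentile 2.07.

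GATA4 spans chr8:11676935-11760002, and its window of 183068 bp held 8 other genes, including NEIL2, a DNA repair glycosylase, and FDFT1, the squalene synthase of cholesterol synthesis. Of its 11 sites 5 lay inside GATA4, and the median percentile over all peaks was 48.7 at GATA4 and 79.4 at GATA6. The GATA6 value rests on sites 3 and 6, which gave most of its peaks. With each site counted once by its own median, the order was the reverse, at 49.9 over the GATA4 sites and 41.2 over the GATA6 sites. The P1 antibody gave 1 peak at GATA4 in its 4 lists.

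GATA4 site 1 (chr8:11628662-11629250), 48.0 kb before the gene, was called in 12 lists, including all 8 induced lists, as were 7.21% of the regions found in pan lists. In Panc10.05 it stood at percentiles 57.9 and 47.9 for P1-α2 and 31.9 and 74.1 for P2-α8. In BxPC3 it stood at 75.9 and 67.7 for P1-α2 and at 82.9 and 89.8 for P2-α8. The ranks of the isoforms overlapped in Panc10.05 and not in BxPC3. These percentiles come from lists of different length, and how many regions show such non-overlap was not computed. It cannot be read as a change in binding at this site. In ASPC1 it stood at 61.7 and 11.5 for sgNC and at 56.0 and 61.5 for sgP2, and it was in neither sgP1 list. The sgNC replicate 2 peak had a −log10 q of 3.59, the lowest of the site's 12 peaks.

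**Figure D2:**
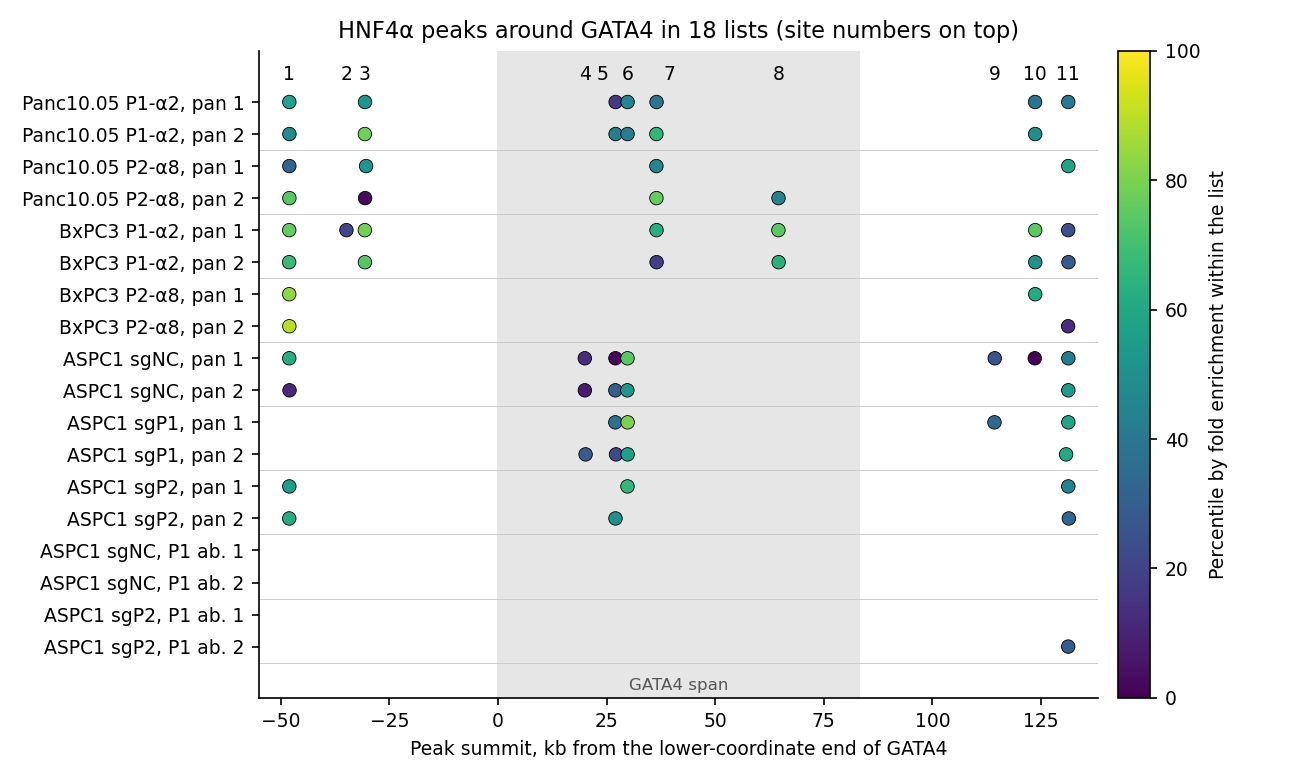
Peaks around GATA4 in each of the 18 lists, with the summit's distance in kb from the lower-coordinate end of the gene on the x axis, the gene's span in grey and the percentile within the list as colour. Site 1 is in all 8 induced lists, and the P1-antibody lists hold 1 peak in all.

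At the other end of the window, GATA4 site 11 (chr8:11807347-11808410) lay in the span of FDFT1 and was also called in 12 lists. It was in all 6 ASPC1 pan lists, at percentiles 42.7 and 54.4 (sgNC), 58.9 and 60.8 (sgP1) and 44.9 and 33.0 (sgP2). The induced lists with it were Panc10.05 P1-α2 replicate 1 at 40.8, Panc10.05 P2-α8 replicate 1 at 58.7, BxPC3 P1-α2 at 24.4 and 28.5, and BxPC3 P2-α8 replicate 2 at 12.6. It was also the GATA4 peak of the P1 antibody, in sgP2 replicate 2, at 28.3. Site 10 (chr8:11800089-11800782), in the span of FDFT1 as well, stood at 38.0 and 48.7 for Panc10.05 P1-α2 and at 74.7 and 51.0 for BxPC3 P1-α2. It was also listed for BxPC3 P2-α8 replicate 1 at 61.1 and for sgNC replicate 1 at 1.19. Both sites thus lay in another gene, and the lists do not tie a peak to the gene it acts on.

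Inside GATA4, a pair of neighbouring sites divided the induced groups. Site 5 (chr8:11703293-11704194) was in both Panc10.05 P1-α2 lists at percentiles 16.6 and 42.3, and site 6 (chr8:11706476-11707179) at 45.7 and 42.3. Neither was called for Panc10.05 P2-α8 or in any BxPC3 list. In ASPC1, site 6 stood at 73.9 and 52.9 with sgNC, at 80.4 and 56.9 with sgP1, and at 66.6 in sgP2 replicate 1. Site 5 stood at 1.40 and 29.8 with sgNC, at 37.3 and 22.5 with sgP1, and at 49.3 in sgP2 replicate 2. Each sgP2 list thus held 1 of the pair, and each sgNC and sgP1 list held both.

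Site 7 (chr8:11713086-11713657) was also inside GATA4 and was called in all 4 Panc10.05 lists, at percentiles 38.0 and 65.3 for P1-α2 and 45.7 and 76.4 for P2-α8. It was in both BxPC3 P1-α2 lists, at 62.7 and 18.3, and in no ASPC1 list. Site 3 (chr8:11646091-11646939), in LOC105379242 before the gene, had the same 6 lists, at 52.3 and 78.1 for Panc10.05 P1-α2, 52.0 and 2.98 for P2-α8, and 79.3 and 73.7 for BxPC3 P1-α2. Both sites were thus found with either isoform in Panc10.05 and with P1-α2 alone in BxPC3.

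Of the less frequent sites inside GATA4, site 8 (chr8:11741227-11741698) stood at 74.5 and 63.9 for BxPC3 P1-α2 and at 44.2 in Panc10.05 P2-α8 replicate 2. Site 4 (chr8:11696889-11697214) was a low-ranking ASPC1 site, at 13.2 and 7.45 for sgNC and 28.4 in sgP1 replicate 2. Outside the gene, site 2 was called in BxPC3 P1-α2 replicate 1 alone, and site 9 in replicate 1 of sgNC and of sgP1.

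The number of peaks per list was compared between groups by two-sided exact permutation tests over libraries, with Benjamini-Hochberg adjustment over 18 tests. With 2 libraries against 2, the smallest p that the 6 splits allow is 0.333. At GATA6, Panc10.05 gave 1 and 2 peaks for P1-α2 and 4 and 3 for P2-α8. BxPC3 gave 4 and 4 for P1-α2 and 1 and 2 for P2-α8. The groups did not overlap in either line, and the isoform with more peaks was P2-α8 in Panc10.05 and P1-α2 in BxPC3. The differences of P1-α2 from P2-α8 were −2 in Panc10.05 and 2.5 in BxPC3, each with an exact permutation p of 0.333 and an adjusted p of 0.545.

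The isoform difference at GATA6 was 4.5 peaks larger in BxPC3 than in Panc10.05. Permuting the isoform labels within each line gave an exact two-sided p of 0.0556, the smallest that these 36 labellings allow, and an adjusted p of 0.5, a test chosen after the data were seen. This permutation assumes no isoform effect in either line, so it does not test whether the effect is equal in the lines. The same holds for every p given here for an isoform difference between lines. For comparison, 27.1% of the protein-coding genes with a peak in these lists had more peaks for P2-α8 in Panc10.05 without overlap, 67.4% had more for P1-α2 in BxPC3 (0.0232% had more for P2-α8), and 16.9% had both patterns seen at GATA6. Per 10000 peaks of the list, the BxPC3 difference at GATA6 was −0.00494 and the difference between lines was 0.458 (exact p of 0.278). With all lists of the induced lines at equal length the difference between lines was 1 peak (exact p of 0.667). P1-α2 then had more GATA6 peaks than P2-α8 in both lines, by 1 on average over the lines (exact permutation p of 0.167). With the Panc10.05 lists cut only to the length of their own shortest, the difference in that line was −1.

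At GATA4, P1-α2 gave more peaks than P2-α8 in both induced lines. Panc10.05 had 7 and 6 peaks for P1-α2 and 4 and 4 for P2-α8, and BxPC3 had 7 and 6 for P1-α2 and 2 and 2 for P2-α8. The difference was 2.5 in Panc10.05 and 4.5 in BxPC3, each with an exact permutation p of 0.333 and an adjusted p of 0.545. Over both lines it was 3.5 peaks, with an exact p of 0.0556, the smallest possible here, and an adjusted p of 0.5. Non-overlap in favour of P1-α2 was less common in Panc10.05, at 3.92% of genes, and was seen in both lines for 2.47%. List lengths in Panc10.05 overlapped, at 24828 and 34146 peaks for P1-α2 and 39111 and 33646 for P2-α8. With the lists of each line cut to the length of its own shortest, the GATA4 difference was 3.5 in Panc10.05 and 2 in BxPC3. These are different lengths, so the 2 values cannot be ranked. With all induced lists at equal length it was 1.5 over both lines, with an exact p of 0.167. It was then 1 peak larger in BxPC3 than in Panc10.05 (exact permutation p of 0.833). Within 10 kb of the gene the GATA4 difference was 1.5 in Panc10.05, 2 in BxPC3 and 1.75 over both lines.

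**Figure D3:**
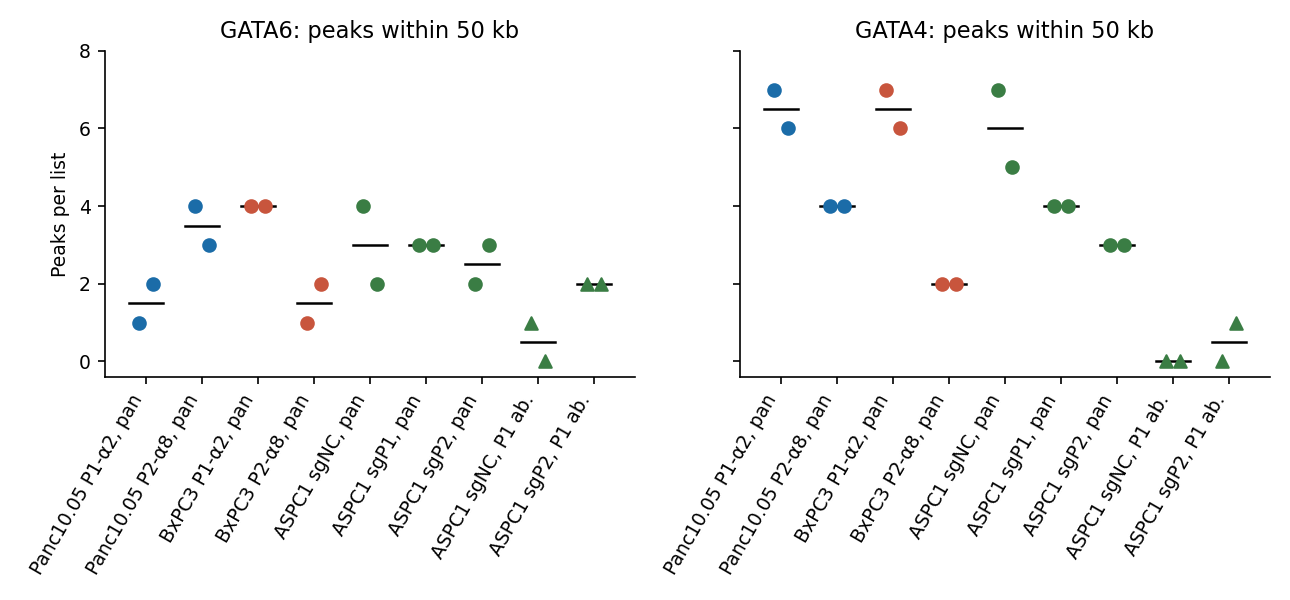
Peaks per list within 50 kb of GATA6 and of GATA4 in the 9 groups, with 1 point per library (circles for the pan antibody, triangles for the P1 antibody) and a line at the mean of 2 libraries. The isoforms do not overlap in either induced line, with 1 and 2 against 4 and 3 peaks at GATA6 in Panc10.05 and 7 and 6 against 4 and 4 at GATA4.

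Between the induced lines, with isoforms weighted equally, BxPC3 differed from Panc10.05 by 0.25 peaks at GATA6 (exact permutation p of 1) and by −1 at GATA4 (exact permutation p of 0.278, adjusted p of 0.545). For the isoforms over both lines, the GATA6 difference was 0.25 peaks with an exact p of 1.

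Counted by site, Panc10.05 had group-specific sites at both loci. Of 13 sites called there, 3 were in both P1-α2 lists and neither P2-α8 list, all at GATA4 (sites 5, 6 and 10), against 3.63% of all regions. Another 2 were in both P2-α8 lists and neither P1-α2 list, both at GATA6 (sites 7 and 8), against 10.9% of regions, and 4 were in all 4 lists, against 38.1%. With so few sites, 2 of 13 is not far from the share over all regions, so no direction is read from it. In BxPC3, 5 of 11 sites were in both P1-α2 lists and neither P2-α8 list (GATA6 sites 4 and 5 and GATA4 sites 3, 7 and 8), against 28.3% of regions. None was specific to P2-α8 there, a class that held 0.13% of regions, and 2 were in all 4 lists, against 18.4%. GATA6 site 7 was thus specific to P2-α8 in Panc10.05 and was in both P1-α2 lists of BxPC3.

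In ASPC1, the high-ranking GATA6 sites 3 and 6 were in all 6 pan lists, under either guide and under the control guide. GATA6 had 4 and 2 peaks in sgNC, 3 and 3 in sgP1, and 2 and 3 in sgP2. The difference from sgNC was 0 for sgP1 and −0.5 for sgP2, each with an exact permutation p of 1, and sgP1 differed from sgP2 by 0.5 with an exact p of 1. These groups overlapped, and the sgP1 and sgP2 comparisons share the sgNC lists.

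At GATA4, sgNC had 7 and 5 peaks, sgP1 4 and 4, and sgP2 3 and 3. The difference from sgNC was −2 for sgP1 and −3 for sgP2, and sgP1 exceeded sgP2 by 1, each with an exact permutation p of 0.333 and an adjusted p of 0.545. Over all genes with a peak in the lists compared, 21.7% had fewer peaks in sgP1 than in sgNC without overlap and 0.515% had more. For sgP2 against sgNC, 16% had fewer and 0.522% more, and for sgP1 against sgP2, 4.44% had more and 8.67% fewer. The sgNC lists, with 24295 and 15118 peaks, were longer on average than those of sgP1 (14038 and 11686) and sgP2 (12345 and 15116). Among peaks with a −log10 q of at least 8, sgP2 differed from sgNC by 0.5, and at equal list length sgP1 differed from sgNC by 1.5, so that the direction at GATA4 turned with the cutoff and the list length.

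By site, 1 of 11 was in both sgNC lists and neither sgP1 list (GATA4 site 1), against 9.06% of regions, 0 were in both sgP1 lists alone, against 0.408%, and 5 were in all 4 of those lists, against 32.4%. For sgP2 against sgNC, 1 of 11 was in both sgNC lists alone (GATA4 site 4), against 7.27% of regions, 0 were in both sgP2 lists alone, against 0.414%, and 4 were in all 4 lists, against 34.4%. Between the guides, 1 of 9 was in both sgP2 lists and neither sgP1 list (GATA4 site 1), against 4.39%, 0 showed the reverse, against 2.76%, and 3 were in all 4 lists, against 38.7%. GATA4 site 1 was thus in both lists of sgNC and of sgP2 and in neither sgP1 list.

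With the P1 antibody, GATA6 had 1 and 0 peaks in sgNC and 2 and 2 in sgP2, and GATA4 had 0 and 0 in sgNC and 0 and 1 in sgP2. The difference of sgP2 from sgNC was 1.5 peaks at GATA6 (exact permutation p of 0.333, adjusted p of 0.545) and 0.5 at GATA4 (exact permutation p of 1). Non-overlap in this direction was found for 54.8% of genes, and the sgP2 lists held 5200 and 3916 peaks against 697 and 260 in sgNC. Of 3 sites, 1 was in both sgP2 lists and neither sgNC list (GATA6 site 3), against 36.5% of regions, 0 showed the reverse, against 0.0655%, and 0 were in all 4 lists, against 3.14%. At equal list length the GATA6 difference was 0.

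The P1-antibody peaks at these loci lay on sites that both pan lists of the same genotype also held. This applied to 1 of 1 peak in sgNC replicate 1, against 89.8% of all peaks of that list. It applied to 2 of 2 in sgP2 replicate 1, against 84.7%, and to 3 of 3 in sgP2 replicate 2, against 93.6%, so that the overlap at these loci was near that of the lists as a whole. Cut by fold enrichment to the 5200 peaks of the P1-antibody replicate 1, the sgP2 pan lists kept GATA6 sites 3 and 6, and pan replicate 1 also kept GATA4 site 6. Cut to 3916 peaks, pan replicate 1 kept GATA6 site 6 alone and pan replicate 2 kept sites 3 and 6. This cut was chosen after the data were seen.

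Ranks within a list allow the loci to be set side by side. The strongest GATA6 peak ranked above the strongest GATA4 peak in 13 of the 15 lists with peaks at both, and site 6 was the strongest GATA6 peak in 15 of 17 lists. The exceptions to the first were both BxPC3 P2-α8 lists, where the percentile of GATA6 site 6 minus that of GATA4 site 1 was −57.2 and −67.5. The fold of GATA6 site 6 over that of GATA4 site 1 in the same list was 0.572 and 0.509 there. It was 1.85 and 1.41 for BxPC3 P1-α2, 2.56 and 3.76 for Panc10.05 P1-α2, and 1.46 and 1.43 for Panc10.05 P2-α8. The P1-α2 and P2-α8 ratios did not overlap in either line, and the P1-α2 ratios were the higher ones. How often other pairs of sites show this was not computed, so it cannot be read as particular to this pair. In ASPC1 the ratio was 4.31 and 4.66 for sgNC and 2.55 and 3.55 for sgP2. This pair of sites was chosen after its values were seen, so the ratios are a description without a test.

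**Figure D4:**
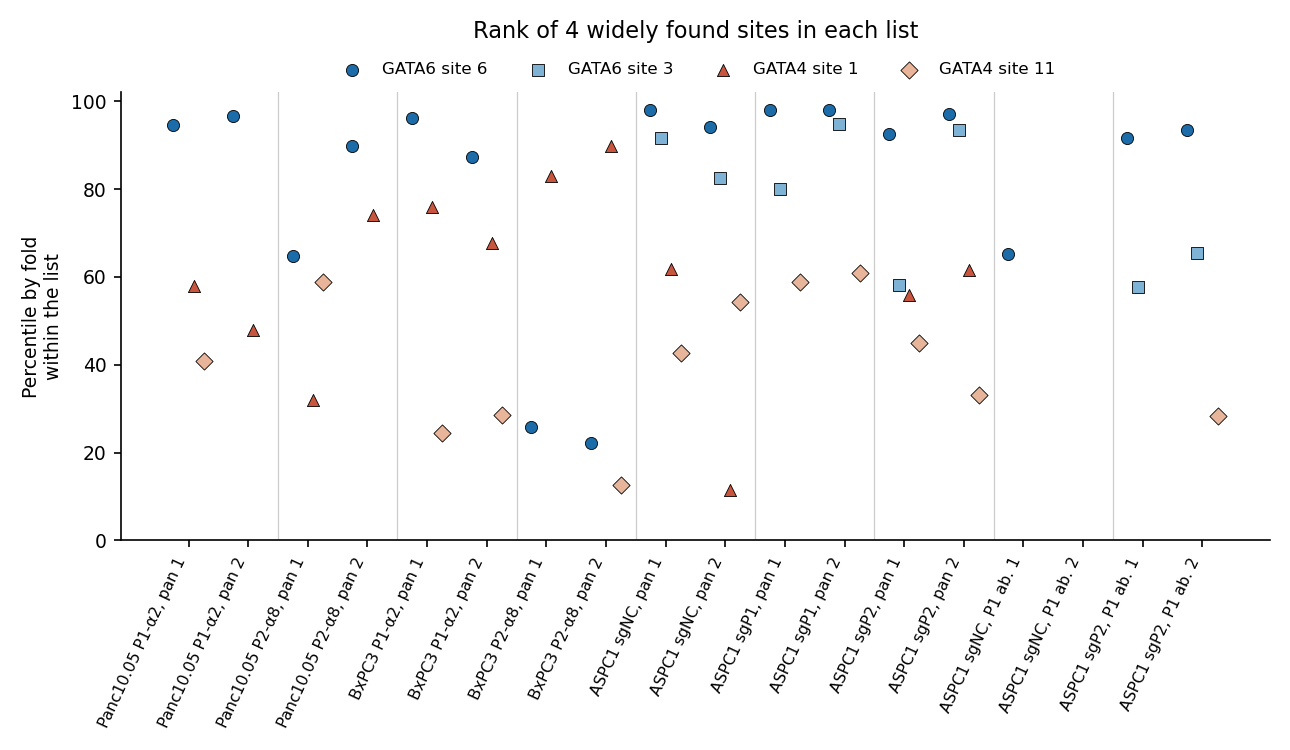
Percentile by fold enrichment within each list for GATA6 sites 6 and 3 and GATA4 sites 1 and 11, with 1 point per list in which the site was called. GATA6 site 6 lies above GATA4 site 1 in 10 of the 12 lists with both, and below it in the BxPC3 P2-α8 lists, at 25.8 and 22.3 against 82.9 and 89.8.

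Other genes of the GATA family were read in the same way. In both lists of a group, a peak within 50 kb was found for 4 of 4 family members (GATA1, GATA2, GATA3 and GATA5) with either isoform in Panc10.05, where 74.5% and 79.5% of all protein-coding genes had one for P1-α2 and P2-α8. In BxPC3 it was 3 of 4 for P1-α2 (background 76.6%) and 2 of 4 for P2-α8 (45.4%). In ASPC1 with the pan antibody it was GATA3 and GATA5 in each genotype, beside 58.5%, 50.6% and 52% of genes for sgNC, sgP1 and sgP2. GATA2, a haematopoietic factor, had 4 and 6 peaks for Panc10.05 P1-α2, 8 and 8 for P2-α8, and none in any ASPC1 list. GATA5, a gut endoderm factor, had 3 and 5 for Panc10.05 P1-α2, 5 and 5 for P2-α8, and 5 and 2 for sgNC.

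The GATA cofactors ZFPM1 and ZFPM2 both had peaks in both lists of each pan group except BxPC3 P2-α8, where ZFPM2 alone had them. Among 18 transcription factors of the endoderm and foregut, the number with a peak in both lists was 11 and 10 for Panc10.05 P1-α2 and P2-α8, 14 and 7 for BxPC3 P1-α2 and P2-α8, and 8, 6 and 6 for sgNC, sgP1 and sgP2. As shares of the 18 these were 61.1% and 55.6% in Panc10.05, 77.8% and 38.9% in BxPC3, and 44.4%, 33.3% and 33.3% in ASPC1, against the shares of all genes given above for each group, and they were the lower ones except for BxPC3 P1-α2. PDX1, a pancreatic master regulator, and CDX2, an intestinal one, were among them in each of these pan groups. In Panc10.05, 3 of the 18 had more peaks for P2-α8 without overlap (27.1% of all genes) and 0 for P1-α2 (3.92%). In BxPC3, 7 had more for P1-α2 (67.4% of all genes) and 0 for P2-α8 (0.0232%). With the P1 antibody none of the 18 had a peak in both sgNC lists (background 2.31%) and 5 did in sgP2 (background 23.7%).

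The genes whose peak numbers over the 18 lists were most like those of GATA6 were DCUN1D3, LYRM1, MUC17, DNAH3 and CTSZ, with Spearman coefficients of 0.904 to 0.892 among 12633 genes. For GATA4 they were SMIM14, AHCYL2, TMOD3, TMEM243 and CACYBP, with 0.959 to 0.941. All points share the length of their list, with which GATA6 itself had a coefficient of 0.629 and GATA4 one of 0.824, and they mix lists with different −log10 q cutoffs. DCUN1D3, LYRM1 and DNAH3 all lie on chromosome 16, and none of the 10 genes had a window overlapping those of GATA4 or GATA6. Overlap between the windows of DCUN1D3, LYRM1 and DNAH3 was not examined, so they cannot be counted as separate loci.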

How the data were processed

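HNF4α ChIP-seq peak lists of 18 immunoprecipitated libraries were analysed, and the 14 input libraries were not used here. Bowtie2 2.2.9 and MACS2 2.2.7 are named, per the submitters' processing notes, and hg38 is listed there beside mm10 without a role. The control used for calling and the filters on peaks are not given in the sources used here. Each deposited list holds the peaks of 1 library, so replicates were not pooled. The deposited fold enrichment is a linear ratio, the deposited p-value and q-value are −log10 values, and the deposited score and summit offset are whole numbers. Read depth is unknown, so no interval for counting error can be given.

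Groups came from the labelled line, genotype and antibody. For BxPC3 P2-α8 the titles read P1 and the genotype label P2, and the genotype label was used. Gene spans and promoters came from RefSeq GRCh38.p14, which has spans without exons here. As a check of the build, 1.04% to 5.29% of the summits of a list lay in the 250 bp promoter windows, against 0% to 0.717% after a shift of 100 kb, with the first share higher in 18 of 18 lists.

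Sites merged peaks of all lists that overlapped by 1 bp or more. Described one by one were, for each gene, the 6 sites in the most lists and every site in both lists of a group and neither of the other in a comparison, 16 in all; sites 2 and 9 of GATA4 and site 2 of GATA6 are named besides. Background shares of sites were computed over all merged regions of a comparison. Shares of genes with a peak in both lists were computed over all 20033 protein-coding genes. Shares of genes with non-overlapping peak numbers left out genes without a peak in the lists compared. Tests were two-sided exact permutation tests over libraries. Some items of the gene lists are not reported here by name. The members, lists and tests were chosen with earlier results of these data known. The alternatives were windows of 10 and 100 kb, any base in the window, a −log10 q of at least 8 or 20, lists of equal length, peaks per 10000, each library left out, a replicate block, summits within 100 bp and 50% reciprocal overlap. The difference of the isoform effect between lines and the pan lists cut to the P1-antibody length were added after the data were seen. The merging of peaks was checked against bedtools 2.31.1 and tested on simulated data. Python 3.11.15, pandas 2.3.3 and numpy 2.4.6 were used.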

Additional observations from a re-analysis of the deposited data

Results flagged for a closer look

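The isoform difference in the number of HNF4α peaks at GATA6 was 4.5 peaks larger in BxPC3 than in Panc10.05. It is listed here because every P1-α2 list was below every P2-α8 list in Panc10.05 (1 and 2 against 4 and 3 peaks) and above in BxPC3 (4 and 4 against 1 and 2). Exact permutation of the isoform labels within each line gave p = 0.0556, the smallest it allows, and an adjusted p of 0.5. It assumes no isoform effect in either line, so it does not test whether the effect is equal in the lines. The same opposite pattern was found for 16.9% of genes, and list lengths ran the same way in BxPC3, at 41808 and 33737 peaks for P1-α2 against 12681 and 14666 for P2-α8. With all lists of both lines at equal length the difference was 1 peak (exact permutation p of 0.667). P1-α2 then had more peaks in both lines, by 1 on average (exact permutation p of 0.167), so the opposite directions were no longer seen. With the Panc10.05 lists cut only to the length of their own shortest, that line had −1. Per 10000 peaks of the list the difference between lines was 0.458 (exact permutation p of 0.278).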

How the results depend on the processing

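Peak lists without reads, 2 libraries a group and a −log10 q cutoff that differs between lines limit these results. A window of 10 kb gave differences of 0 for GATA6 in Panc10.05 and for GATA4 with the P1 antibody, and a window of 100 kb gave −1.25 for GATA6 in BxPC3 against Panc10.05. With a −log10 q of at least 8, GATA6 differed by −0.5 for sgP1 against sgNC and by 0 for sgP1 against sgP2, and GATA4 by 0.5 for sgP2 against sgNC, by −1 for sgP1 against sgP2 and by 0 with the P1 antibody. With at least 20, GATA6 gave 0 for sgP2 against sgNC and against sgP1, and GATA4 gave 0.5 for sgP1 against sgNC, 0 for sgP2 against sgNC and 0 with the P1 antibody. Per 10000 peaks, GATA6 gave −0.00494 in BxPC3, 0.867 for sgP1 and 0.318 for sgP2 against sgNC, −2.70 with the P1 antibody and −0.234 for the isoforms over both lines, and GATA4 gave 0.0419 for sgP1 against sgNC and −0.927 for the isoform difference between lines. At equal length, GATA6 gave 1 for sgP1 and 0 for sgP2 against sgNC and 0 with the P1 antibody, and GATA4 gave 1.5 and 0.5 for sgP1 and sgP2 against sgNC, 0 with the P1 antibody and 1 for BxPC3 against Panc10.05. Beyond the settings' own removal of peaks, the cause of these changes was not tested.

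Leaving out each library gave ranges at GATA6 of −2.5 to −1.5 for Panc10.05 and 2 to 3 for BxPC3, 0 to 0.5 for the isoforms over both lines and for the lines, and 4 to 5 for the isoform difference between lines. In ASPC1 the GATA6 ranges were −1 to 1 for sgP1 minus sgNC and −1.5 to 0.5 for sgP2 minus sgNC (0.5 without sgNC replicate 1), 0 to 1 between guides and 1 to 2 with the P1 antibody. At GATA4, Panc10.05 ranged from 2 to 3 and BxPC3 from 4 to 5, with 3.25 to 3.75 over both lines, −1.25 to −0.75 between lines, 1.5 to 2.5 for the isoform difference, −3 to −1 for sgP1 minus sgNC, −4 to −2 for sgP2 minus sgNC, 1 to 1 between guides and 0 to 1 with the P1 antibody.

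Group-specific sites in Panc10.05 (5) became 2 at 10 kb, 3 at equal length and 3 under the −log10 q cutoff of 20, and in BxPC3 (5) they became 8 at 100 kb and 3 at equal length. For sgP1 against sgNC (1) they became 2 by summits within 100 bp and 0 at 10 kb or under either −log10 q cutoff. For sgP2 against sgNC (1) they became 0 with either cutoff or at equal length. Between the guides (1) they became 2.5 by reciprocal overlap, 0 at 10 kb or with at least 20, and 2 at equal length. With the P1 antibody (1) they became 2 by reciprocal overlap and 0 at equal length. Without each library in turn Panc10.05 gave 5 to 6 and BxPC3 5 to 7, while sgNC gave 1 to 3 beside sgP1 and 1 to 4 beside sgP2, with 2 to 3 between guides and 1 to 2 with the P1 antibody. A library left out was also left out of the rule for a group-specific site. These counts could therefore only stay or rise, and their ranges do not measure stability.

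A replicate block, swapping labels within a replicate number, changes only the labellings and so cannot alter a difference. By exact permutation it gave a p of 0.125 for the GATA6 isoform difference of 4.5 between lines. The p was the same for the GATA4 isoform difference of 3.5 over both lines, and it is the smallest that these swaps allow. The labels do not say whether same-numbered libraries were paired. Deviations of same-numbered libraries correlated at −0.0694 to 0.0674, which cannot settle how they were prepared.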
